A study of Homo sapiens with 6 samples.

Results

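Histones are the small basic proteins that package DNA into nucleosomes. The replication-dependent genes, most of which sit in clusters on chromosomes 6 and 1, supply the core histones H2A, H2B, H3 and H4 and the linker histone H1 during S phase. Their mRNAs typically end in a conserved stem-loop that binds the protein SLBP, and carry no poly(A) tail. The variant genes are transcribed outside S phase as well, and give spliced or polyadenylated mRNAs. Some clustered genes also make polyadenylated transcripts that read past the stem-loop. The libraries described here were made with oligo-dT beads, which bind poly(A) tails, so the reads of a clustered gene cover only the transcripts that such beads recover.

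The members were the genes whose symbol began with HIST1H to HIST4H, H1F, H2AF, H2BF or H3F. The rule found 50 of the 14987 genes listed, of which 40 were clustered genes and 10 were variants. The clustered genes comprised 28 of HIST1, 10 of HIST2, 1 of HIST3 and 1 of HIST4. They encode H1 (2 genes), H2A (13), H2B (9), H3 (8) and H4 (8). The variants were H1F0, H1FX, H2AFJ, H2AFV, H2AFX, H2AFY, H2AFY2, H2AFZ, H3F3A and H3F3B. The table holds no gene that had 0 reads in the NC control library, and other histone genes were not analysed here.

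RNA was sequenced from HCT116, a human colorectal carcinoma cell line, in 6 libraries. Glucose deprivation for 6 h was applied to cells of the YAP knockdown constructs shYAP1 and shYAP3 (1 library each) and to NC cells labelled wild type (1 library), and each of these lines was also sequenced in control medium. The series asks what deprivation induces with and without interference with YAP, a transcriptional co-activator of the Hippo pathway. The labels do not say whether libraries came from separate cultures, so p-values measure the spread between these libraries, and NC has no replicate within a medium.

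Each library held 16912634 to 22161075 reads assigned to listed genes. YAP1, the targeted gene, stood at 20.3 and 18.2 in the deprived shYAP1 and shYAP3 libraries against 154 in deprived NC cells, and at 35.7 and 38.2 in control medium against 188 in NC cells (deposited values). Of 10 colorectal epithelium markers 8 were listed (CDX1 and LGALS4 were not), and they summed to 4636 to 6219 RPM (reads per 1000000 reads of listed genes) after deprivation and 4008 to 5259 in control medium. Most of this sum lay in the keratin genes KRT8, KRT18 and KRT19, at deposited values of 3185, 1666 and 1026 in deprived NC cells. CDX2 and VIL1 were low, at deposited values of 5.75 to 14.2 and 1.12 to 3.72 over the 6 libraries. Of 14 markers of fibroblasts, leukocytes and endothelium, 7 were listed, with 10.8 to 21.2 RPM after deprivation and 15.2 to 20.49 in control medium. COL1A2, DCN, LUM, PTPRC, CD3E, PECAM1 and CDH5 were not among them.

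The stem-loop itself can be read in the annotated transcripts. The search was for a stem of 6 paired bases, G-U pairs allowed, that closes a loop of 4, where the first arm starts with GG followed by pyrimidines and the loop with TT, on the transcript's strand. It was found in an annotated GENCODE v29 transcript of 22 of the 40 clustered genes and of 1 of the 10 variants. Among all 14877 listed genes matched to that annotation 2.14% held it. Some clustered genes have short annotations, such as HIST1H4A with 312 bases and HIST1H3A with 411. A stem-loop past the annotated end cannot be found, so a gene without a hit is not shown to lack one. The variant with a stem-loop was H2AFX, a gene known to give both a stem-loop and a polyadenylated mRNA. The following sites are shown because each gene is described in the results below. Capitals mark the 2 arms of the stem, and letters are those of the DNA, 5′ to 3′ on the gene's strand.
HIST3H2A: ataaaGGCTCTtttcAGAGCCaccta
HIST1H3H: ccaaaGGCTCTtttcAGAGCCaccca
HIST2H3C: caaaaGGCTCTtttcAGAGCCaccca
HIST1H4E: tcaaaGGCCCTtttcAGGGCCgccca
HIST2H4A: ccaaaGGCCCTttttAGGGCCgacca
H2AFX: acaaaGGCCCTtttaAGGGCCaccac

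In build GRCh38 these lie at chr1:228457364-228457389 on the minus strand (HIST3H2A), chr6:27810511-27810536 on the plus strand (HIST1H3H) and chr1:149840687-149840712 on the minus strand (HIST2H3C). HIST1H4E has its site at chr6:26204996-26205021 on the plus strand, HIST2H4A at chr1:149833027-149833052 on the plus strand and H2AFX at chr11:119094893-119094918 on the minus strand. Each lies within an annotated transcript of its gene. The commonest core, with the GGCTCT and AGAGCC arms and a TTTC loop, was found at 11 of the 21 distinct sites that could be placed on the genome, and the core of H2AFX at no other of these sites. The annotation of HIST3H2A ran on for 390 bases beyond the stem-loop, that of HIST1H3H for 769, that of HIST1H4E for 1022 and that of H2AFX for 1044. In all, 18 clustered genes were annotated 100 bases or more beyond a stem-loop or as spliced coding transcripts.

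Their promoters were compared in a window around each gene's start, from RefSeq with build GRCh38.p14, which had an entry for 37 clustered genes and 9 variants. The TATA box letters TATAAA, on either strand, occurred in 26 of 37 clustered promoters (70.3%), in 4 of 9 variant promoters and in 11.5% of all 35116 promoters. The letters CCAAT, on either strand, occurred in 32 of 37 clustered promoters (86.5%), in 7 of 9 variant promoters and in 34.6% of all promoters. The 37 clustered windows are not all separate, since copies such as HIST2H3A and HIST2H3C have nearly the same sequence. Windows overlap on opposite strands for HIST1H2AC and HIST1H2BC, HIST1H2AG and HIST1H2BJ, HIST1H2AI and HIST1H2BL, and HIST1H2AK and HIST1H2BN. The same holds for HIST1H2AM and HIST1H2BO and for HIST2H2AC and HIST2H2BE. A motif in such a shared part can belong to either gene and is counted for both. The promoters of HIST1H1E and H2AFX are shown because these genes are the clustered member and the variant whose responses are described first below, and both carry the 2 motifs. Capitals mark them in either orientation (TTTATA and ATTGG are the reverse). The first lies at chr6:26156079-26156378 on the plus strand and the other at chr11:119095416-119095715 on the minus strand.
HIST1H1E: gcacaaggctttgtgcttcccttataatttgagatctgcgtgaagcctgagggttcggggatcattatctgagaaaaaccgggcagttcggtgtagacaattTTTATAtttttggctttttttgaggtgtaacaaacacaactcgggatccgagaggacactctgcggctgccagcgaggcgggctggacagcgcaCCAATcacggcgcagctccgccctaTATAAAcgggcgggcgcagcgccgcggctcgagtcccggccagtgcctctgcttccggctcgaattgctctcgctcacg
H2AFX: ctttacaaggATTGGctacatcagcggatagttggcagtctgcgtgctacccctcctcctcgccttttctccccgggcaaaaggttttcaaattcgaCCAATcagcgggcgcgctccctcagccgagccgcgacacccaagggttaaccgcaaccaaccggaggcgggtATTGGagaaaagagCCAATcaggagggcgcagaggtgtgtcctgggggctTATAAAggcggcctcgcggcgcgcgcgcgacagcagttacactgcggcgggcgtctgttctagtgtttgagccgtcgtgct

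The clustered genes lay far below the variants, with few exceptions. Per kilobase of the longest coding transcript, in RPM and averaged over the 3 control libraries, the median clustered gene stood at 0.369 and the median variant at 96.4. H2AFZ, which encodes the H2A.Z found at promoters, was the highest at 718, followed by H3F3B at 339 and H1F0 at 235. H3F3A, which with H3F3B encodes the replacement histone H3.3, stood at 187. H2AFX, whose product is phosphorylated around DNA breaks, stood at 103, and H2AFY, a macroH2A gene, at 90.2. The lowest variant was H2AFJ at 12.4. Of the clustered genes 2 were in that range, HIST1H2BK at 41.7 and the linker histone gene HIST1H1C at 14.3. The annotation of HIST1H2BK in this reference covers 381 bases and holds no stem-loop, so its value per kilobase is an upper estimate if longer transcripts were counted. The next clustered genes were HIST1H2BD at 4.74, HIST3H2A at 3.83 and HIST2H2AA4 at 3.58, values whose control libraries overlapped one another. In reads, the clustered genes ran from 1 to 1631 over all 6 libraries, 26 of 40 had fewer than 100, and the variants ran from 916 to 100397.

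**Figure D1:**
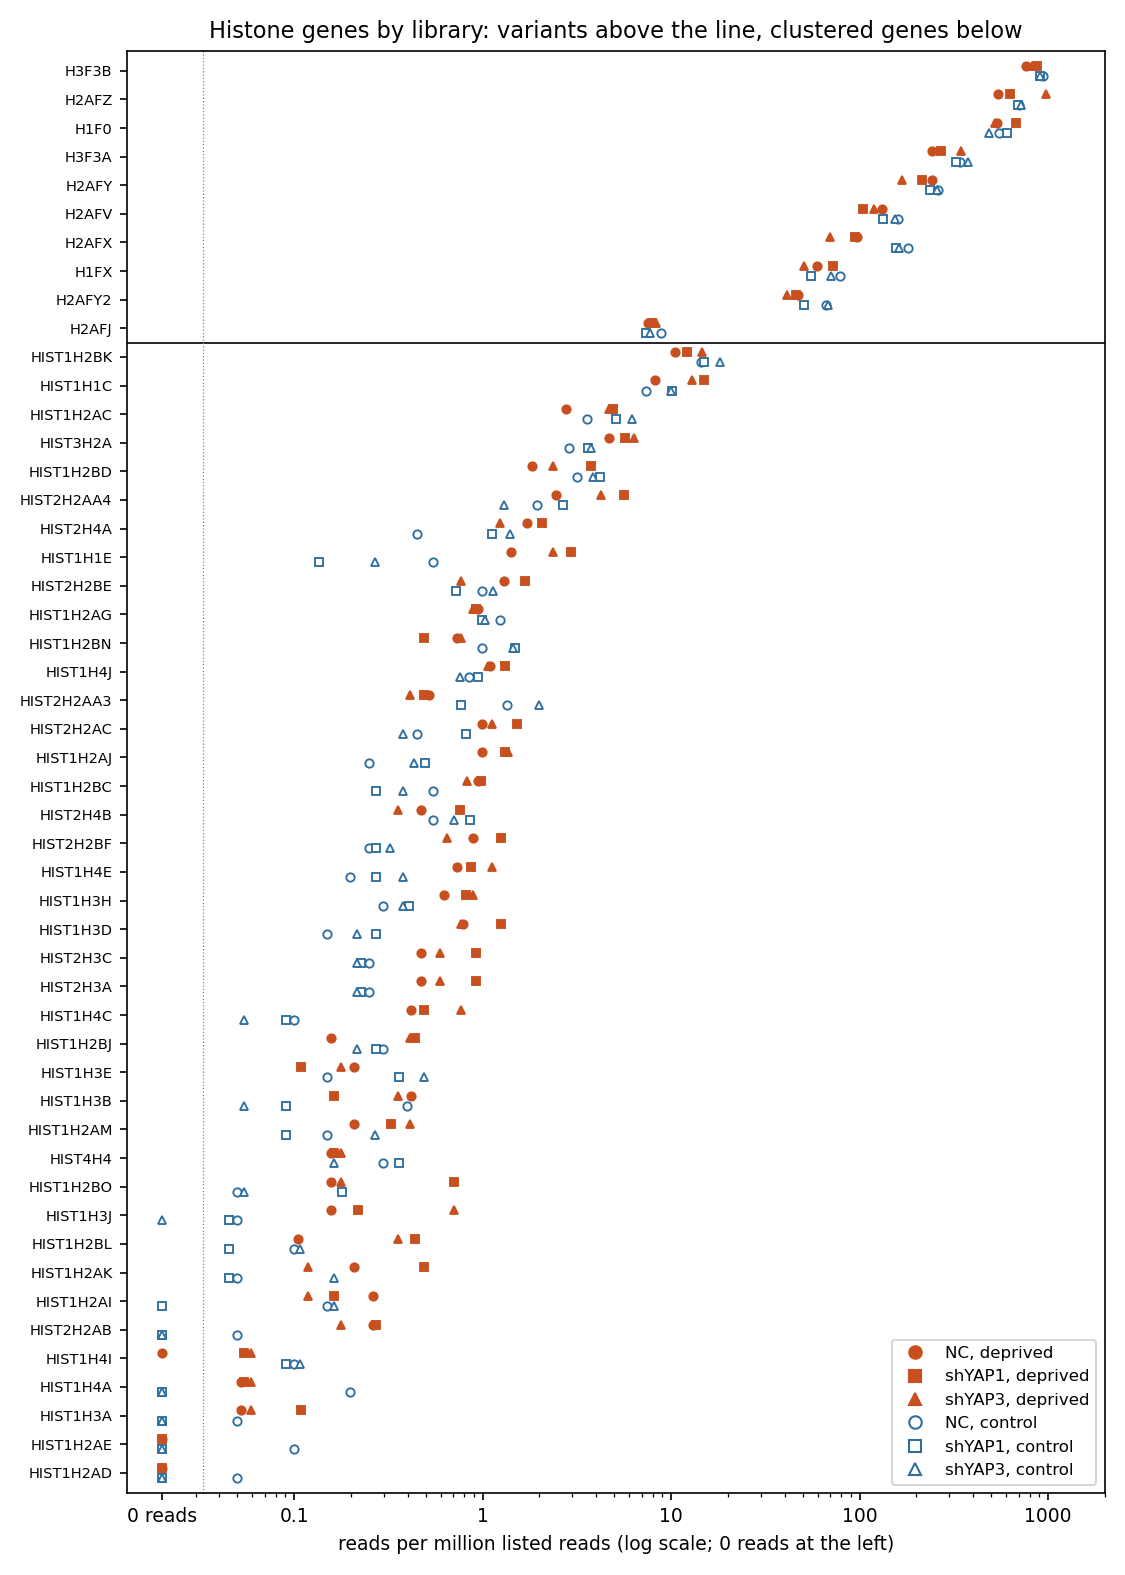
RPM (log axis) of each of the 50 histone genes in each library, with deprived libraries as filled symbols and control libraries as open symbols, and circles, squares and triangles for NC, shYAP1 and shYAP3. The 10 variants above the line lie to the right of nearly all clustered genes. In 21 clustered genes (52.5%) all 3 deprived values were above all 3 control values on the deposited scale, where 23.0% of all listed genes did so.

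After 6 h without glucose, clustered genes tended to stand higher and variants did not. The genes called higher were 2 of 2 H1, 5 of 13 H2A, 2 of 9 H2B, 5 of 8 H3 and 3 of 8 H4 genes. Among all 40 clustered genes, edgeR's quasi-likelihood test on the recovered reads of every listed gene called 17 higher and 0 lower after deprivation (Benjamini-Hochberg adjusted p below 0.05). The same fit called 12.7% of all 14987 genes higher and 13.4% lower. HIST2H3A and HIST2H3C, with equal reads in all 6 libraries, are both among the 17. HIST2H2AA4 and HIST2H4A are too, but summed with their copies HIST2H2AA3 and HIST2H4B they were not called (edgeR adjusted p = 0.057 and 0.11). One clustered gene, HIST2H2AA3, was lower at an unadjusted p below 0.05, and limma and DESeq2, which tested 15 of the genes, likewise called 0 lower with 1 at that level. The median log2 fold change of the 40 genes was 1.10, against 0.06 for the 10 variants and -0.01 for all genes. This fit was added after the data had been seen. Leaving out 1 library left 7 calls without the NC control library, 7 without the NC deprived library, 4 without shYAP1 control, 6 without shYAP3 control, 10 without shYAP1 deprived and 17 without shYAP3 deprived.

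On the deposited scale, all 3 deprived values exceeded all 3 control values for 21 of 40 clustered genes (52.5%). Of all listed genes 23.0% did so, and of the 10% with the shortest transcripts 31.8%. The deprived values lay below for 2 of 40, HIST2H2AA3 and HIST1H4I, where 21.9% of all genes and 7.25% of the shortest 10% did. The equal rows HIST2H3A and HIST2H3C are both counted among the 21. None of the 10 variants was higher in this sense, and 1, H2AFX, was lower. In RPM the counts were 16 of 40 clustered genes higher (all genes 9.09%) and 4 lower (all genes 37.4%), these being HIST1H2AG, HIST1H2BN, HIST1H4I and HIST2H2AA3, and 0 variants higher and 4 lower, H2AFV, H2AFX, H2AFY2 and H3F3B. The deprived value was above the control value in 27 clustered genes (67.5%) in NC cells, 32 (80%) in shYAP1 cells and 31 (77.5%) in shYAP3 cells. Among all listed genes the shares in these lines were 49.5%, 50.15% and 49.5%, and among the shortest 10% they were 55.0%, 67.2% and 71.3%. In a bulk sample, a change in the share of cells that are in S phase and a change in RNA per cell cannot be told apart.

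Transcript length, level and the scale of the values moved with these counts. The 10% of tested genes with the shortest transcripts stood, in median, at a log2 deviation of 0.46 from their own mean in the deprived shYAP3 library, at 0.15 in deprived shYAP1, at -0.08 in deprived NC and at -0.20 to -0.16 in the control libraries. For the 10% with the longest transcripts it was -0.30, -0.08 and 0.04 in the same deprived libraries, in that order. In the control libraries it was 0.10 to 0.13. Among the shortest 10% of listed genes edgeR called 19.3% higher and 2.28% lower. Of these short genes 69.3% had a positive log2 fold change, beside 75% of the clustered genes. Among genes with a mean deposited value below 1 it called 1.61% higher and 3.35% lower, and 36.25% had a positive log2 fold change. With the trends on length and GC content removed from every library (limma, all listed genes), 12 of 40 clustered genes were called higher and 2 lower. The share of all genes called in that fit is not given here, so these counts stand without a background. Scaled to equal listed reads, the median log2 fold change of all tested genes was -0.24 in place of 0.05, and 749 genes were called higher and 3802 lower in place of 2018 and 1918. On that scale 5 of the 15 clustered genes tested were called higher and 1 lower, beside those 749 and 3802 of all 12263 tested.

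The main test, limma on log2(value + 1), took only genes that reached 1 or more in 2 or more libraries. It called 7 of the 15 clustered genes tested higher and 0 lower (1 at an unadjusted p below 0.05), beside 16.5% of all 12263 genes higher and 15.6% lower. Of these 15 genes 5, HIST1H1E, HIST1H2AJ, HIST1H4J, HIST2H2AC and HIST2H2BE, passed the filter only through deprived libraries, so this count describes the genes that entered and supports no direction. All 7 were among the 17 called by edgeR. In the 10 fits of the response made without that filter, HIST1H1E, HIST3H2A, HIST1H2AJ and HIST1H3D were called higher each time.

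**Figure D2:**
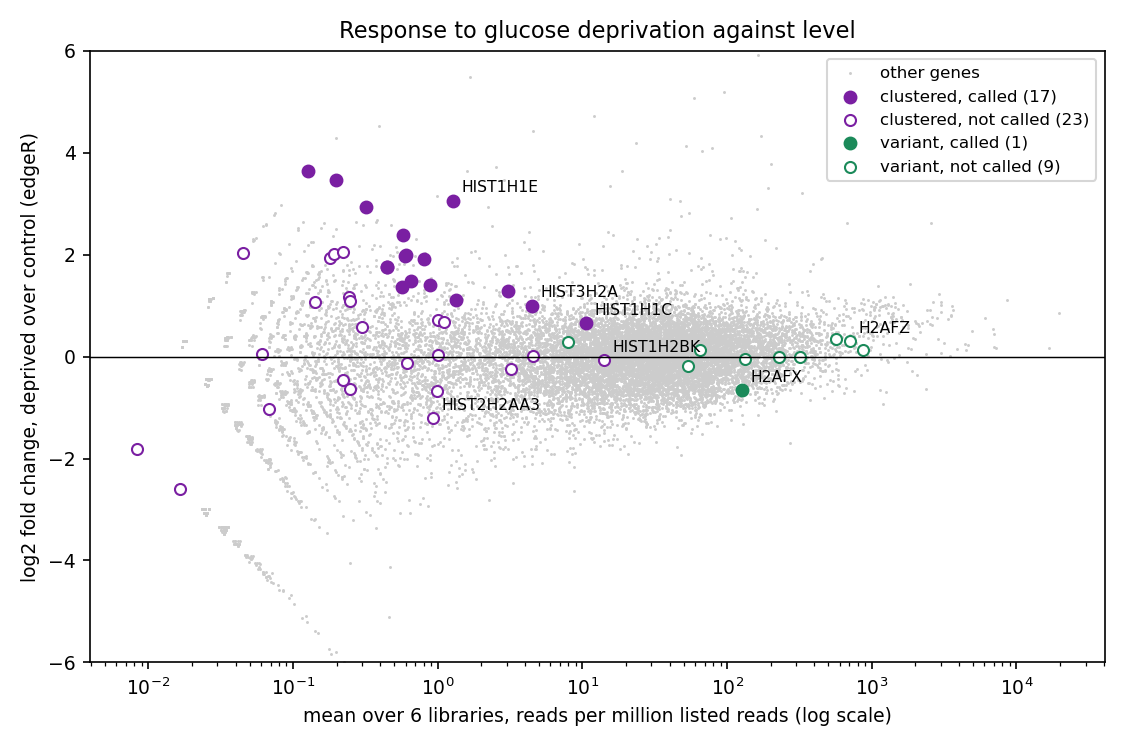
Log2 fold change of deprived over control (edgeR on every listed gene) against the mean RPM over 6 libraries (log axis), with all genes in grey, clustered histone genes in purple and variants in green, filled where the adjusted p was below 0.05. The 17 filled clustered points all lie above 0 and mostly at low levels, and the 1 filled variant point, H2AFX, lies below 0 (5 genes beyond 6 on the log2 scale are not drawn).

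Both listed linker histone genes of the HIST1 cluster were higher after deprivation within each line. HIST1H1E, which encodes H1.4, had 27, 54 and 40 reads in the deprived NC, shYAP1 and shYAP3 libraries against 11, 3 and 5 in the control libraries of the same lines. The deposited values were 1.44, 3.14 and 2.77 against 0.484, 0.122 and 0.227. Every deprived library was above every control library, and the shYAP libraries were farthest apart. The log2 fold change was 3.06 with an adjusted p of 0.0023 in edgeR on every listed gene. HIST1H1C, which encodes H1.2, stood at 8.35, 15.97 and 15.2 in deprived NC, shYAP1 and shYAP3 cells against 6.55, 9.13 and 8.36 in control medium. It was higher after deprivation within each line, by 1.27, 1.75 and 1.82 times, and the groups overlapped because deprived NC cells stood below control shYAP cells. Its log2 fold change was 0.61 ± 0.16 (SE, on the log2(value + 1) scale, limma, adjusted p = 0.019), and it was called in 19 of 25 fits. Scaled to equal listed reads it was not called (0.33, adjusted p = 0.13). Neither gene has a near-identical copy or an overlapping exon of another gene in the annotation.

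Among the H2A genes 5 of 13 were called higher by edgeR, beside 12.7% of all listed genes. HIST3H2A, which lies apart from the large clusters on chromosome 1, stood at 4.79, 6.10 and 7.49 in deprived NC, shYAP1 and shYAP3 cells against 2.55, 3.25 and 3.18 in control medium. The groups did not overlap, and the fold change was 1.88 in NC cells, 1.88 with construct shYAP1 and 2.35 with shYAP3. Its log2 fold change was 0.82 ± 0.15 (limma, adjusted p = 0.0065). HIST1H2AJ had 19, 24 and 23 deprived reads against 5, 11 and 8 control reads, and edgeR gave a log2 fold change of 1.92 (adjusted p = 0.0058). HIST2H2AC had 19, 28 and 19 deprived reads against 9, 18 and 7 control reads, with 1.404 (edgeR adjusted p = 0.026), and was called in 5 of the 10 fits without the filter. Every deprived value of both genes was above every control value on the deposited scale, although HIST2H2AC in control shYAP1 cells came close to deprived NC cells in reads. HIST1H2AJ shares 83.7% of its 50-base stretches with HIST1H2AI, so reads could be split between the copies.

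HIST2H2AA4 stood at 2.50, 5.98 and 4.99 after deprivation against 1.72, 2.39 and 1.09 in control medium, and its log2 fold change was 0.98 ± 0.25 (limma, adjusted p = 0.019). The HIST2H2AA3 row, which was matched to the same annotated gene as the HIST2H2AA4 row, stood at 0.532, 0.523 and 0.485 after deprivation against 1.19, 0.690 and 1.68 in control medium, with a log2 fold change of -0.51 ± 0.20 (adjusted p = 0.080). The 2 rows differed between media in opposite directions, and in neither did the groups overlap. With the rows summed, the value was 3.03, 6.51 and 5.48 after deprivation against 2.90, 3.08 and 2.77, and the log2 fold change of 0.57 ± 0.19 was not called (limma, adjusted p = 0.051, edgeR 0.057). With the line as a replicate block, which pairs each deprived library with the control library of the same line, HIST2H2AA3 was called lower (adjusted p = 0.0498). The remaining called H2A gene, HIST2H2AB, whose exon overlaps that of BOLA1 on the opposite strand, had 5, 5 and 3 deprived reads against 1, 0 and 0 control reads.

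The H2B genes held the largest share of clustered reads, with 1631 reads over the 6 libraries in HIST1H2BK alone, and the median log2 fold change of the 9 genes was 0.69 (edgeR). HIST1H2BK stood at 10.6, 13.01 and 17.1 in deprived NC, shYAP1 and shYAP3 cells against 12.8, 13.5 and 15.3 in control medium. The groups overlapped, and the log2 fold change was -0.05 ± 0.16 (limma, adjusted p = 0.84). HIST1H2BD, another gene with a known polyadenylated form, stood at 1.86, 4.01 and 2.77 after deprivation against 2.82, 3.77 and 3.23, and its log2 fold change of -0.17 ± 0.18 was not called either (adjusted p = 0.48). HIST1H2AC, an H2A gene with many reads for a clustered gene, stood at 2.82, 5.23 and 5.48 against 3.17, 4.58 and 5.23, with 0.03 ± 0.15 (adjusted p = 0.90). The H2B genes called higher were HIST1H2BC and HIST2H2BF, 2 of 9 (22.2%), beside 12.7% of all listed genes and 19.3% of the shortest 10%. HIST1H2BC had 18, 18 and 14 deprived reads against 11, 6 and 7 control reads, and HIST2H2BF had 17, 23 and 11 against 5, 6 and 6. HIST2H2BF shares exon sequence with FCGR1A on the opposite strand, and no strand setting was given, so reads of the 2 genes cannot be told apart.

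**Figure D3:**
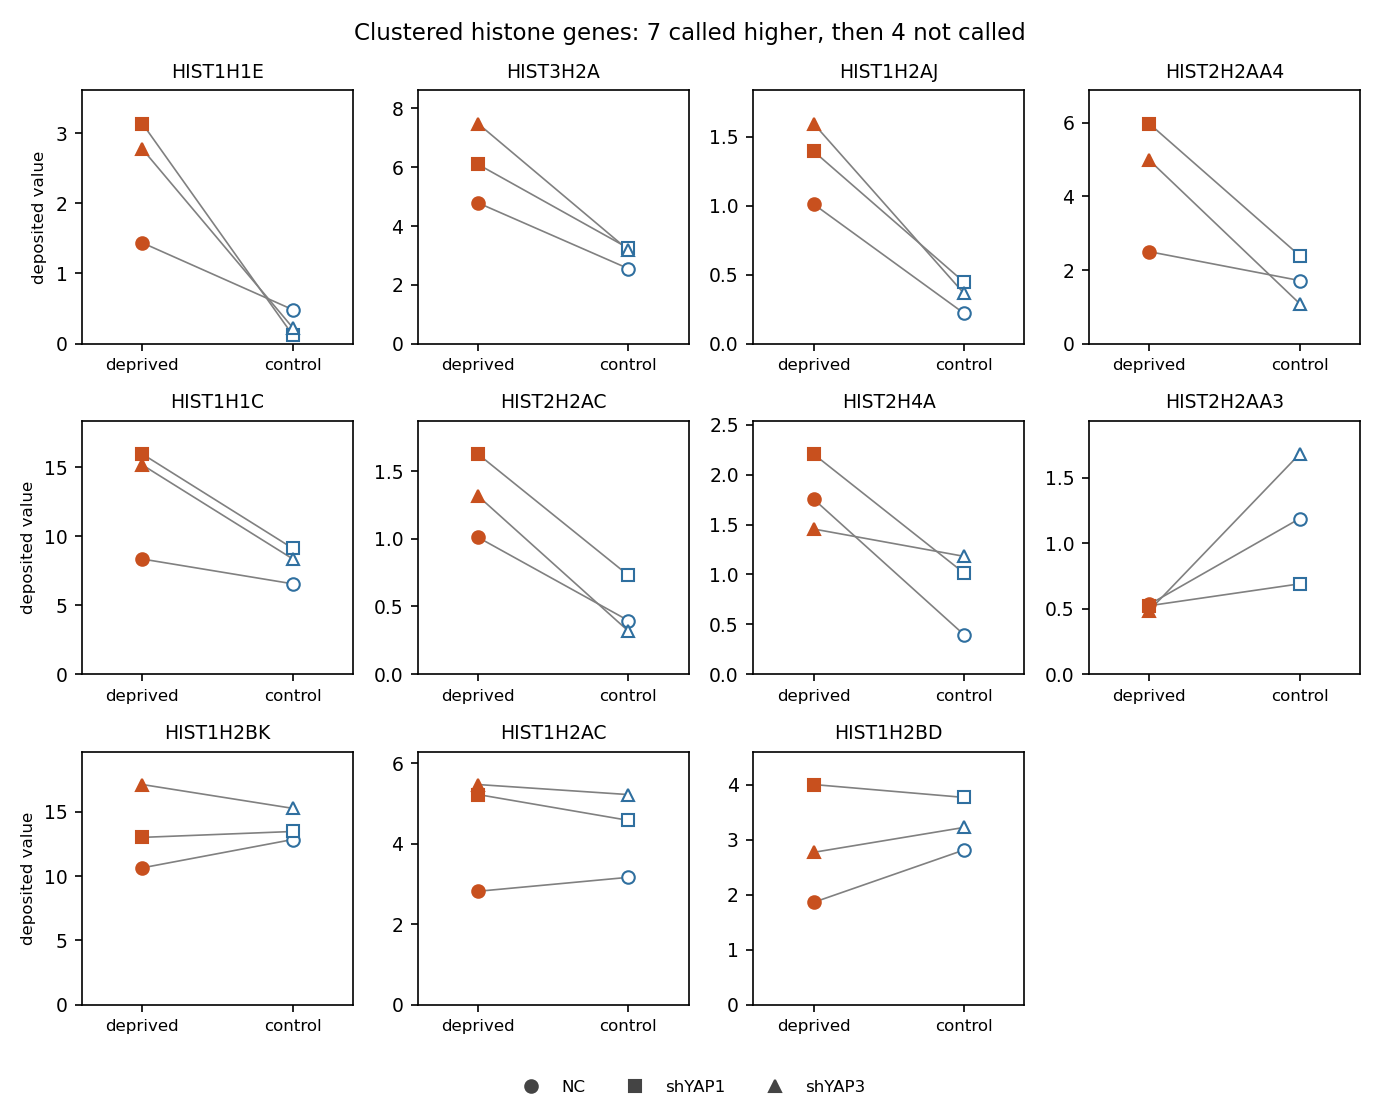
Deposited values of 11 clustered histone genes after deprivation (left, filled) and in control medium (right, open), with a grey line joining the libraries of 1 line and an axis from 0 in each panel. The 7 genes called higher by limma slope down from deprived to control in every line, HIST2H2AA3 slopes up, and HIST1H2BK, HIST1H2AC and HIST1H2BD have overlapping groups. The 7 are drawn because they were called, so their slopes lend no further support.

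The H3 genes had low counts, and of their 8 rows 5 were called higher by edgeR, beside 12.7% of all listed genes. Summed over the 8 rows, which count the equal rows of HIST2H3A and HIST2H3C separately, there were 61, 83 and 70 reads in deprived NC, shYAP1 and shYAP3 cells against 32, 36 and 29 in control medium, so all deprived libraries lay above all control libraries. HIST1H3D had 15, 23 and 13 deprived reads against 3, 6 and 4 (log2 fold change 2.39, adjusted p = 0.0057), and was called in each of the 10 fits that included it. Its exon overlaps that of an unnamed transcript on the same strand. HIST1H3H had 12, 15 and 15 against 6, 9 and 7 (1.37, adjusted p = 0.037), and HIST1H3J, whose exon overlaps that of HIST1H2AM, had 3, 4 and 12 against 1, 1 and 0. The ratio of summed reads per listed read was 10.6 for HIST1H3J, with an exact 95% interval of 2.56 to 94.0 that covers counting error only. The reads of HIST2H3A and HIST2H3C were equal in all 6 libraries, 9, 17 and 10 against 5, 5 and 4, and describe 1 measurement rather than 2.

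Of the 8 H4 genes 3 were called higher by edgeR, beside 12.7% of all listed genes. HIST1H4C had 8, 9 and 13 deprived reads in NC, shYAP1 and shYAP3 cells against 2, 2 and 1 in control medium, a ratio per listed read of 6.71 with an exact 95% interval of 2.58 to 22.1. HIST1H4E had 14, 16 and 19 against 4, 6 and 7 (log2 fold change 1.97, edgeR adjusted p = 0.010). In both genes every deprived library exceeded every control library. HIST2H4A stood at 1.76, 2.21 and 1.46 after deprivation against 0.396, 1.01 and 1.18, with 0.61 ± 0.19 (limma, adjusted p = 0.039), but was called in 9 of 25 fits. Summed with its copy HIST2H4B it was not called (0.45 ± 0.19, limma adjusted p = 0.097). HIST4H4, the only clustered member on chromosome 12, had 3, 3 and 3 deprived reads against 6, 8 and 3, and was not called.

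Of the clustered genes 22 had neither a near-identical copy nor an exon of another gene over theirs, and 8 of these were called higher by edgeR, with a median log2 fold change of 0.84. They were HIST1H1C, HIST1H1E, HIST1H2BC, HIST1H3H, HIST1H4C, HIST1H4E, HIST2H2AC and HIST3H2A. The counts in this paragraph are to be read against the 12.7% of all listed genes, and 19.3% of the shortest 10%, that edgeR called higher. By cluster, 9 of 28 HIST1 genes (chr6:26020490-27893843) and 7 of 10 HIST2 genes (chr1:149782689-149887916, both in GRCh38) were called. Genes annotated past the stem-loop or spliced were called in 8 of 18 cases and the remaining clustered genes in 9 of 22. The remaining genes include short annotations without a stem-loop, so this split does not sort genes by their true 3′ ends.

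Of the 10 variants 1 passed the test, in the lower direction. Among all genes limma called 15.6% lower and edgeR 13.4%, so 1 of 10 is not above the share of all genes. H2AFX fell to 98.9, 101 and 81.2 in deprived NC, shYAP1 and shYAP3 cells, against 159, 141 and 136 in control medium. All deprived libraries were below all control libraries, and the deprived to control ratio was 0.621, 0.717 and 0.599 in the 3 lines. Its log2 fold change was -0.63 ± 0.14 (limma, adjusted p = 0.011, edgeR 0.0088). The fold change lay between -0.55 and -0.94 in all 25 fits, but with the NC control, the NC deprived, the shYAP1 control or the shYAP3 control library left out the limma adjusted p was 0.069, 0.068, 0.073 and 0.065, and it was called in 17 of 25 fits. It is also the variant with a histone stem-loop.

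The other 9 variants were not called. H1F0, the linker histone H1.0 known from quiescent and differentiated cells, stood at 546, 720 and 616 after deprivation against 488, 548 and 411 in control medium. It was higher in each line while the groups overlapped, and limma gave 0.38 ± 0.17 on the log2 scale (adjusted p = 0.11). The gene was called higher without the deprived shYAP3 library (0.41, adjusted p = 0.034). H2AFZ stood at 553, 670 and 1145 against 623, 621 and 602. Its high value came from the deprived shYAP3 library alone, and deprived NC cells stood below all control cells (0.29 ± 0.23, adjusted p = 0.34). H3F3A stood at 247, 290 and 405 against 303, 293 and 317, with the deprived shYAP3 library again the highest and the other deprived libraries below the control ones (0.01 ± 0.17, adjusted p = 0.96). With length and GC trends removed H3F3A was called lower (-0.46, limma adjusted p = 0.0084, and -0.38, adjusted p = 0.025, without the filter).

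H3F3B stood at 779, 929 and 969 against 836, 813 and 759 (0.15 ± 0.15, limma adjusted p = 0.47), with deprived NC cells within the control range, and was called lower under quantile normalization (-0.40, adjusted p = 0.020). The macroH2A genes H2AFY and H2AFY2 averaged 224 ± 25.1 and 48.4 ± 0.515 after deprivation and 220 ± 11.04 and 54.0 ± 7.17 in control medium (SD over 3 lines). H2AFV, the second H2A.Z gene, averaged 129 ± 15.2 and 130 ± 10.6. The linker histone gene H1FX averaged 65.9 ± 10.1 and 59.7 ± 10.2, and H2AFJ 8.66 ± 1.04 and 6.98 ± 0.699. In these 5 genes and H3F3B the groups overlapped. H2AFY2 was called lower when scaled to listed reads (-0.45, limma adjusted p = 0.048). H3F3B, H2AFZ, H3F3A, H2AFY, H2AFY2 and H1FX have exons that overlap those of other genes, mostly on the opposite strand.

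**Figure D4:**
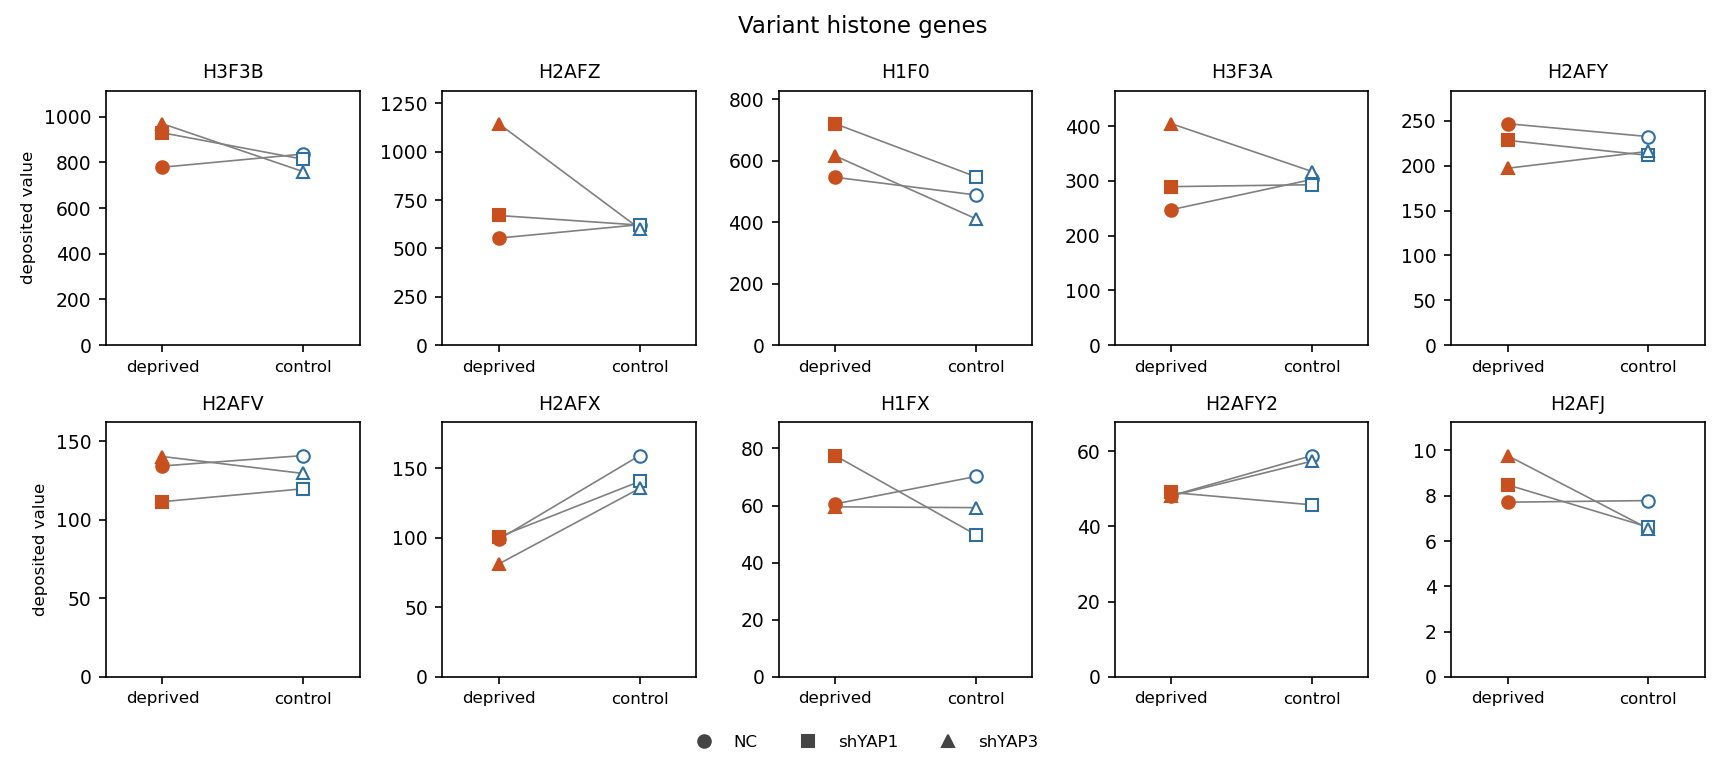
Deposited values of the 10 variant histone genes after deprivation (left, filled) and in control medium (right, open), with a grey line joining the libraries of 1 line and an axis from 0 in each panel. H2AFX is lower after deprivation in all lines, and the deprived shYAP3 library (filled triangle) is the highest of all for H2AFZ, H3F3A and H3F3B.

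Set against each other within a library, clustered genes gained on variants. No library scaling changes this ratio, but it is not corrected for the length trends given above. The median annotated length was 563 bases for clustered genes and 1921.5 for variants. There were 18.1, 24.1 and 20.8 clustered reads per 1000 variant reads in deprived NC, shYAP1 and shYAP3 cells against 13.8, 16.6 and 17.7 in control medium. All 3 deprived libraries were above all 3 control libraries, by 1.31, 1.45 and 1.17 times within the lines, and the ratio of the group means was 1.31 ± 0.137 (SD over 3 lines). Without the 11 clustered genes that have near-identical copies the ratio of means was 1.46, and per annotated length it was 1.26. Per listed read, the clustered sum was 48.3, 71.9 and 65.2 RPM after deprivation against 45.4, 52.7 and 56.7, and the variant sum was 2674, 2988 and 3132 against 3297, 3169 and 3202. In NC cells the clustered sums, 925 reads after deprivation and 914 in control medium, had overlapping 95% Wilson intervals, 45.3 to 51.6 against 42.5 to 48.4 RPM. The same-line fold of clustered over variant reads was 2.47, 2.95 and 2.70 for H3 genes, 2.10, 1.64 and 1.39 for H4 genes, 1.49, 1.85 and 1.53 for H1 genes, 1.45, 1.58 and 1.30 for H2A genes and 0.977, 1.04 and 0.834 for H2B genes in NC, shYAP1 and shYAP3 cells. The difference between the families was not tested.

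**Figure D5:**
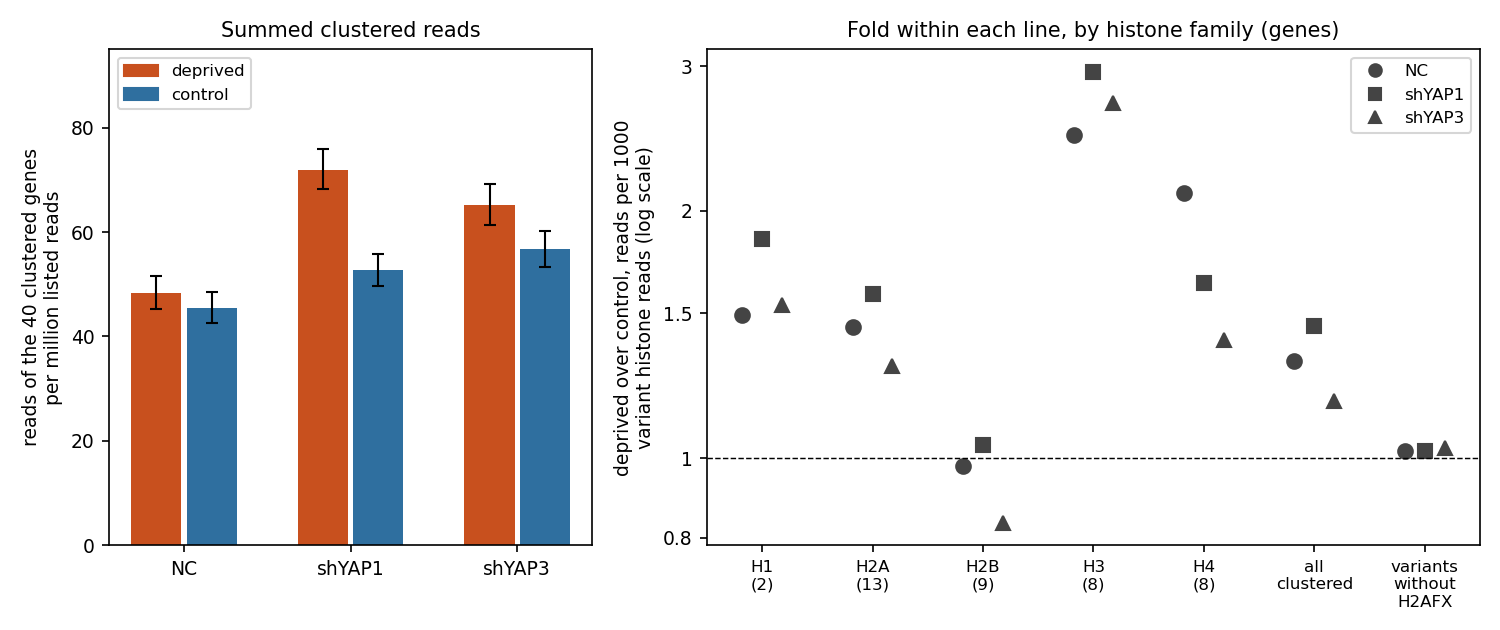
Left, the 40 clustered genes summed, in RPM, in each line, deprived left of control, with 95% Wilson intervals that cover counting error only. Right, the deprived over control ratio of clustered reads per 1000 variant reads within each line (log axis), by histone family with the number of genes in brackets, where H3 lies between 2.47 and 2.95 and H2B between 0.834 and 1.04.

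YAP knockdown changed no histone gene past the threshold. Of 15 clustered genes and 10 variants tested with both media in the model, limma called 0 (0.00815% of all 12263 genes were called, that is 1 gene). Unadjusted p-values below 0.05 went to 2 clustered genes and 0 variants in limma, in edgeR and in DESeq2, each of which called 0. These 2 were HIST1H2AC and HIST1H1C. HIST1H2AC stood at 5.23 and 5.48 in deprived and 4.58 and 5.23 in control shYAP1 and shYAP3 cells, against 2.82 and 3.17 in deprived and control NC cells, with a log2 fold change of 0.62 (unadjusted p = 0.0039, adjusted p = 0.58). HIST1H1C had a log2 fold change of 0.60 (unadjusted p = 0.0057, adjusted p = 0.58). All 4 shYAP values were above both NC values in these genes and in HIST1H2BK, 3 of 40 clustered genes, where 4.69% of all listed genes did so. H2AFY was the 1 variant whose shYAP values were all below both NC values, where 6.12% of all genes did so. The clustered sum was 71.9 and 65.2 in deprived and 52.7 and 56.7 RPM in control shYAP cells, against 48.3 and 45.4 in deprived and control NC cells.

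The response did not differ detectably between shYAP and NC cells at this number of libraries. For the difference of the response, limma called 0 of 25 histone genes and 0 of 12263 genes (0.0%, with 111 at an unadjusted p below 0.05, where DESeq2 called 1 gene of the table). Neither edgeR nor DESeq2 called a histone gene, that is 0 in each. HIST1H1E was the 1 histone gene with an unadjusted p below 0.05 in limma and edgeR (log2 difference 1.04, unadjusted p = 0.021), and DESeq2 gave none. Without the deprived shYAP1 library H2AFZ and H3F3A were called higher in shYAP cells (adjusted p = 5.6e-04 and 0.0089), and without the deprived shYAP3 library H1FX was (adjusted p = 0.013). These fits keep 1 deprived shYAP library, and the whole table then held 2735 and 269 calls.

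Genes that supply and handle histones were called in both directions, at shares to be read against the 16.5% of all 12263 genes called higher and 15.6% called lower. Of 24 tested genes for histone transcription, stem-loop processing and decay, limma called 3 higher and 3 lower after deprivation (12.5% each), with a median log2 fold change of -5.1e-04, against 0.05 for all tested genes. ZNF473, a zinc finger protein of the U7 snRNP that cleaves histone pre-mRNA, stood at 39.2, 34.9 and 39.7 in deprived NC, shYAP1 and shYAP3 cells against 24.3, 22.2 and 23.3 (0.68 ± 0.13, adjusted p = 0.0073). POU2F1, the octamer factor OCT1 that drives H2B promoters, fell to 61.4, 40.6 and 34.0 against 85.3, 78.0 and 79.0 in control medium (-0.86 ± 0.16, adjusted p = 0.0063). UPF1, an RNA helicase that takes part in histone mRNA decay, fell to 97.3, 85.6 and 49.1 against 153, 120 and 125 (-0.82 ± 0.20, adjusted p = 0.015). In all 3 the groups did not overlap. SLBP, the stem-loop binding protein itself, had a log2 fold change of -0.03 (adjusted p = 0.88), and NPAT, the co-activator of clustered histone genes, 0.36 (adjusted p = 0.11). Both were chosen after their values were seen.

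Of 31 histone chaperones and exchange factors 5 were called higher (16.1%) and 9 lower (29.03%), with a median log2 fold change of -0.01. The 3 with the smallest p were HIRA, UBN1 and UBN2, subunits of the HIRA complex and its relatives that deposit H3.3 outside replication, and all 3 fell. HIRA stood at 42.1, 29.9 and 25.3 in deprived NC, shYAP1 and shYAP3 cells against 66.9, 58.3 and 60.7 (-0.94 ± 0.15, limma adjusted p = 0.0032). UBN1 averaged 36.8 ± 8.72 after deprivation and 66.7 ± 4.98 in control medium, and UBN2 20.6 ± 4.64 and 34.2 ± 1.51 (SD over 3 lines). No deprived library reached any control library in these genes. Of 27 S phase and replication genes 4 were called higher (14.8%) and 2 lower (7.41%), with a median log2 fold change of 0.12. CDC6, a licensing factor, averaged 220 ± 20.9 after deprivation and 133 ± 19.8 in control medium, CDC45, a helicase subunit, 43.8 ± 1.54 and 29.5 ± 3.26, and GINS1, its partner, 35.1 ± 3.18 and 58.6 ± 4.09. The first 2 were called higher and GINS1 lower (adjusted p = 0.0075, 0.016 and 0.0068). For the genes of these lists no fit with length and GC trends removed is given here.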

How the data were processed

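The table of the whole series held, per gene and library, a deposited signal, that is a read count divided by a library factor. Libraries were prepared with oligo-dT beads per the labels' protocols, and Bowtie2, BWA and build hg19 are named per the submitters' processing notes, with no versions. For the counting tool, annotation and strand setting nothing is given in the sources used here. Divided by what 1 read was worth (0.0406 to 0.0693), the deposited values were whole in 100% of cases (tolerance 0.01 of a read), so reads were recovered. No listed gene stood at 0 in NC control cells, while 535 to 942 genes stood at 0 in the other libraries. The H3F3B row carries the symbol MIR4738 in one column, and the HIST2H2AA4 row the symbol HIST2H2AA3, so genes were named by the row ID.

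The main test was limma 3.58.1 (trend method, log2(value + 1)) for the 12263 genes that reached 1 or more in 2 or more libraries, with Benjamini-Hochberg adjustment over all of them and a threshold of 0.05. edgeR 4.0.16 and DESeq2 1.42.0 (R 4.3.3) were run on recovered reads, and edgeR also on every listed gene, an alternative added after the data were seen. Members and gene lists were chosen with earlier results of these data known. The text names all variants, the clustered genes called or highest in level, and the 3 genes of each list with the smallest p in the response. Libraries were paired across media by the name of the line, all HCT116, and the deviations of the constructs correlated at 0.102 between media. Other settings were another pseudocount (0.1), no filter, quantile and listed-read scaling, removal of length and GC trends, a replicate block and leaving out each library. The limma fit was tested on simulated data. Genes were matched to GENCODE v29 (GRCh38, 99.3% of genes), so coordinates are not of the build the reads were mapped to. Listed reads were 16912634 to 22161075 per library, intervals cover counting error only, and 3 reads were worth 0.122 to 0.208.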

Additional observations from a re-analysis of the deposited data

How the results depend on the processing

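The limma count of clustered genes higher after deprivation, 7, was 4 with length and GC trends removed, 17 without the filter, 12 without the filter and with those trends removed, and 3 to 7 with 1 library left out. The count of clustered genes lower, 0, was 2 with length and GC trends removed, with or without the filter, 1 when scaled to listed reads, and 1 with the line as a replicate block, which changed no other histone call. The count of variants higher, 0, was 1 with length and GC trends removed and 0 to 1 with 1 library left out. The count of variants lower, 1, was 2 under each of length and GC removal (with or without the filter), quantile normalization and scaling to listed reads, and 0 to 1 with 1 library left out. In edgeR on every gene the 17 clustered calls ranged from 4 to 17 with 1 library left out, and the variant call from 0 to 1. The ratio of clustered to variant reads, 1.31, was 1.46 without near-identical copies and 1.21 to 1.399 with 1 library left out. The histone calls for the difference between shYAP and NC cells, 0, reached 2 with 1 library left out; without an NC library that difference could not be fitted. In the single-gene results 846 values kept direction and side of the threshold, 25 lost the call and 9 gained one, where a gene not called in either fit counts as kept whatever its sign. The cause of these changes was not tested. Genes with few reads limit the comparison, since 26 of 40 clustered genes had fewer than 100 reads in all.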
